A study of Mus musculus with 4 samples.

Results

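The cerebellins and the delta glutamate receptor Grid1 were followed through the developing superior colliculus of the mouse. The members were the 4 genes Cbln1, Cbln2, Cbln4 and Grid1, taken by their symbol from the 31053 genes of the deposited count matrix. Single nuclei of the superior colliculus of C57BL/6J mice had been profiled at embryonic day 19 (E19) and postnatal days 4, 8 and 21 (P4, P8 and P21). No genotype or treatment was compared, and age is the only difference between the groups that the labels give. Tissue of several animals was pooled for each stage and made into 1 library. Differences between stages therefore have no replicate check, carry no p-value and cannot be told apart from differences between libraries or dissections. The protocol text writes E10 in brackets after embryonic day 19, and the stage is given here as E19, as in the sample labels.

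The 4 libraries held 2249 to 2585 nuclei each and 9724 in all, with medians of 6828 to 11745 unique molecular identifiers (UMIs, each marking 1 captured RNA molecule) per nucleus. Median depth was lowest at E19 and highest at P21. The authors' annotation sorts the nuclei into 9 classes and 35 subtypes, of which 13 are excitatory neurons (EN1 to EN13) and 12 are inhibitory neurons (IN1 to IN12), with 7552 neurons together. Of 35 markers, 25 were highest in their own class, among them all 4 for inhibitory neurons, all 4 for microglia and all 3 for endothelial cells. For astrocytes 3 of 5 were (not Slc1a3 and Gja1), and for the oligodendrocyte lineage 3 of 7 (not Pdgfra, Cspg4, Olig1 and Olig2). The epithelial class did not have the highest level of any of its 3 markers and was not used. A total of 9 barcodes occurred in more than 1 library, which touches 18 nuclei.

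Cerebellins are small secreted proteins of the C1q family. They are released by axons, bind neurexins on the axon and delta glutamate receptors on the facing dendrite, and so hold the sides of a synapse together. Cbln1 is best known from granule cells of the cerebellum, Cbln2 and Cbln4 from forebrain, midbrain and spinal neurons, and the Cbln4 protein also binds the netrin receptors Dcc and neogenin. Grid1 encodes the receptor GluD1, which resembles ionotropic glutamate receptors in its structure but works mainly as a synaptic organiser. The superior colliculus is the layered roof of the midbrain, where retinal axons and other inputs are wired into maps around birth and in the first postnatal weeks.

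On mouse genome build GRCm38 (mm10), Cbln1 (ENSMUSG00000031654) spans chr8:87468405-87472609 on the minus strand and overlaps Gm2694 on the other strand. Cbln2 (ENSMUSG00000024647) spans chr18:86711110-86718283 on the plus strand. Cbln4 (ENSMUSG00000067578) spans chr2:172036233-172043466 on the minus strand. Grid1 (ENSMUSG00000041078) spans chr14:34820108-35583379 on the plus strand, a gene body of 763 kb against 4.21 kb for Cbln1, 7.17 kb for Cbln2 and 7.23 kb for Cbln4. The reference used for counting took in introns, so a long gene collects more UMIs from the nucleus than a short one. The matrix held 299 UMIs of Cbln1, 3034 of Cbln2, 1466 of Cbln4 and 83839 of Grid1. Levels are given as CPM, the UMIs of a gene per 1000000 UMIs of the summed nuclei of a class or subtype in 1 library, with an exact 95% Poisson interval in brackets that covers counting error only. Per kilobase of gene body, the excitatory levels at E19 were 8.87 CPM for Cbln2, 2.07 for Cbln4, 1.48 for Cbln1 and 1.31 for Grid1. At P21 the values on that scale were 2.81 for Cbln2, 1.18 for Grid1, 0.729 for Cbln4 and 0.261 for Cbln1. Grid1 thus stood second at P21, with a lower value than at E19, because Cbln4 and Cbln1 fell further. The E19 places of Cbln1, from 72 UMIs, and Grid1 were close and are not settled. Whether UMIs rise in proportion to gene length was not tested.

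The ligands and the receptor took different courses between E19 and P21. All 3 cerebellins had lower levels at P21 than at E19 in both neuron classes, while the Grid1 level in neurons differed little. For Cbln2 in inhibitory neurons the direction could not be read once the UMIs seen in non-neuronal nuclei were subtracted. The inhibitory level at E19 lay below theirs, so none of it was left to compare. Cbln1 was scarce, and in UMIs per nucleus both neuron classes lay within the interval of those non-neuronal nuclei at every stage. Among neurons, Cbln2 was highest in a few excitatory subtypes and Cbln4 in 1 inhibitory subtype. Grid1 was present in every neuron subtype, in astrocytes and in oligodendrocyte precursors, and was low in myelinating oligodendrocytes.

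**Figure D1:**
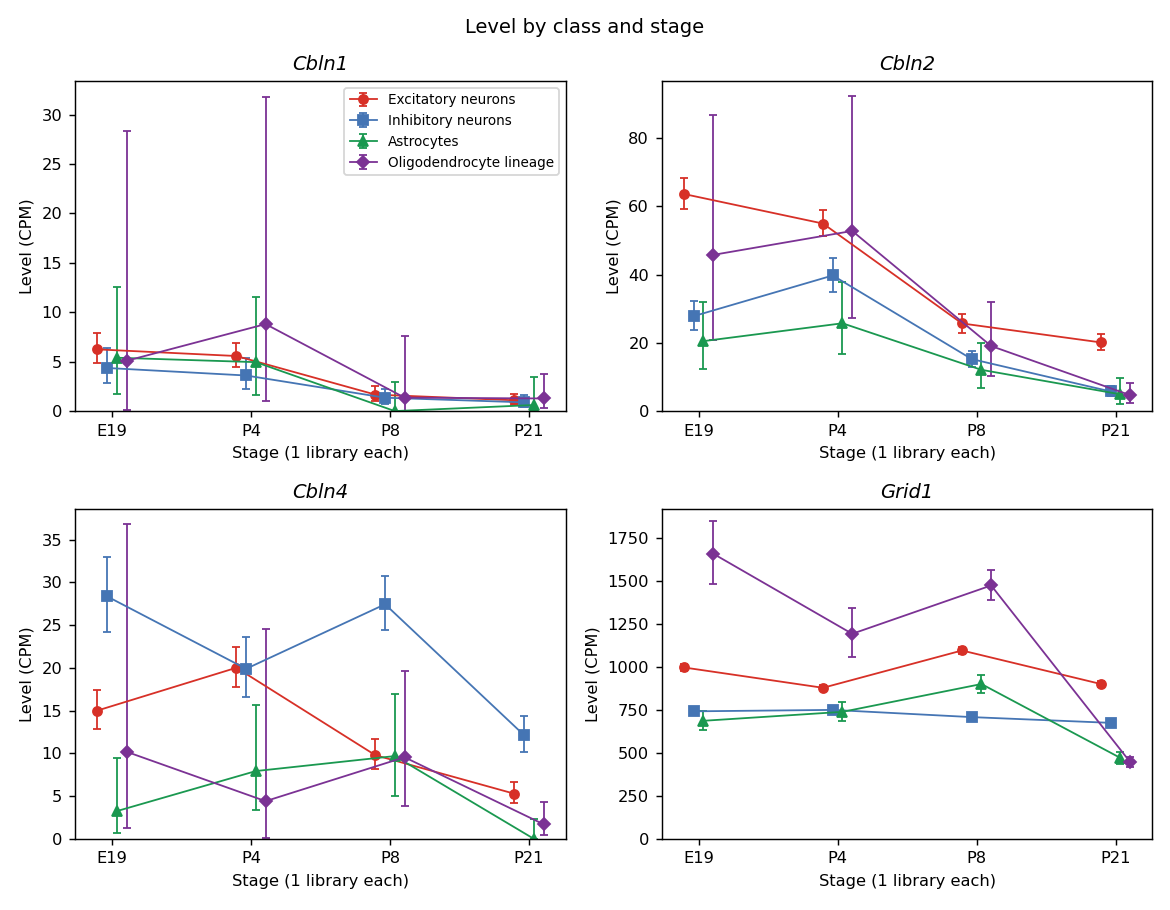
Level in CPM (vertical axis, linear, from 0) of each gene at the 4 stages (horizontal axis, 1 library each) in excitatory neurons, inhibitory neurons, astrocytes and the oligodendrocyte lineage. Bars are exact 95% Poisson intervals for counting error only, and lines only join the values of a class. Cbln2 in excitatory neurons goes from 63.6 CPM at E19 to 20.1 at P21, and Grid1 in the oligodendrocyte lineage from 1659 to 447.

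Of the neuron classes, the excitatory one held more Cbln2. From E19 through P4 and P8 to P21 its levels were 63.6 CPM (59.1 to 68.4), 55.0 (51.3 to 58.9), 25.7 (23.0 to 28.6) and 20.1 (17.9 to 22.6). In inhibitory neurons they were 27.8 CPM (23.8 to 32.4), 39.8 (35.0 to 45.0), 15.3 (13.04 to 17.7) and 5.75 (4.44 to 7.33) in the same order of stages, which is kept in every list of 4 values that follows. The late levels were below both early levels in each class, with no overlap of the intervals. All ratios between levels are given as log2 of (CPM + 5), which understates the change of low genes. On that scale P21 lay below E19 by a log2 ratio of -1.45 (-1.62 to -1.28) in excitatory neurons, 2.73-fold, and by -1.61 (-1.88 to -1.34) in inhibitory neurons, 3.05-fold. The largest step fell between P4 and P8 in both classes, at -0.97 in excitatory and -1.14 in inhibitory neurons. From P8 to P21 the step was -0.29 in excitatory and -0.91 in inhibitory neurons.

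Cbln2 was thus at least 2-fold lower at P21 in both classes. With the UMIs per nucleus of non-neuronal nuclei subtracted, described further on, the log2 ratio was -0.92 in excitatory neurons, under 2-fold, and 0.80 in inhibitory neurons. The inhibitory E19 level lay below that of the non-neuronal nuclei and was set to no UMIs, so the inhibitory ratio could not come out negative. Across all genes with at least 20 CPM at 1 of the 2 stages, 10.7% of 7650 were that much lower in excitatory neurons and 11.3% of 7807 in inhibitory neurons, so a difference of this size was not rare. No member was at least 2-fold higher at P21 in either class, as 5.35% and 5.83% of those genes were. Of the members, Cbln2 and Grid1 passed the 20 CPM minimum in excitatory neurons, and these together with Cbln4 in inhibitory neurons. The median log2 ratio over all those genes was -0.06 in excitatory and -0.04 in inhibitory neurons.

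Within subtypes the same direction held throughout for Cbln2. All 23 neuron subtypes with at least 20 nuclei at both ages had a lower Cbln2 level at P21 than at E19, and in 15 of them (6 of 11 excitatory, 9 of 12 inhibitory) the interval of the ratio left out 0. The log2 ratios ran from -2.63 to -0.32 with a median of -1.58. Median-of-ratios scaling raises P21 levels against E19 levels by a log2 of 0.12 in excitatory and 0.11 in inhibitory neurons. Under it all 23 subtypes were still lower, 14 beyond counting error. Between P4 and P8 alone, 22 of 23 subtypes were lower, 12 beyond counting error. At E19 only EN1, EN2, EN3, EN7 and EN12, and no inhibitory subtype, held more Cbln2 UMIs per nucleus than the non-neuronal nuclei described further on. Those nuclei went from 0.205 UMIs per nucleus at E19 to 0.0313 at P21, and the part of free RNA in the subtype ratios was not tested.

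Subtype EN2 had the highest Cbln2 level at E19, P4 and P8, with 139 CPM (124 to 156), 125 (106 to 146) and 89.6 (69.5 to 114), and 45.9 (31.8 to 64.2) at P21. EN12 stood at 98.0 CPM (59.0 to 153), 88.0, 72.5 and 56.3 (43.8 to 71.3) and was the highest at P21, where its interval overlaps that of EN2. Without the 5% of nuclei with most UMIs in each library, the P21 values were 87.3 CPM in EN12 and 48.7 in EN2. EN3 completed the leading subtypes from P4 on, with 70.9, 102, 34.3 and 35.2 CPM. The P21 over E19 log2 ratio was -1.50 (-1.999 to -1.03) in EN2 and -0.92 (-1.37 to -0.46) in EN3. In EN12 it was -0.75 (-1.45 to 0.01), which is within counting error. At E19 the third place belonged to EN7, with 93.2 CPM, a subtype with 33 nuclei at E19, 191 at P4 and 1 each at P8 and P21.

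At the low end of the Cbln2 order stood IN3, IN5 and EN6 at E19, EN6, EN13 and IN10 at P4, the same 3 at P8, and IN3, IN9 and IN10 at P21. EN6 had 9.91, 12.05, 6.07 and 1.91 CPM. Most neighbours in the order could not be told apart. The interval of the ratio between adjacent subtypes left out 0 for 0 of 24 pairs at E19 and 1 of 24 at P4. At each later stage it did so for 1 of 22 pairs. The order as a whole was similar between libraries, with Spearman's rho of 0.60 to 0.76 over 23 to 25 subtypes for each pair of libraries, given as a description since the nuclei of a library share its depth and handling.

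The subtypes that carried the excitatory Cbln2 signal changed with age. EN2 gave 40.3% of the excitatory Cbln2 UMIs at E19 and 11.6% at P21, while its share of excitatory nuclei went from 21.4% to 5.28%. EN12 went the other way, from 2.59% to 23.5% of the UMIs and from 1.64% to 6.01% of the nuclei. EN3 went from 8.58% to 24.5% of the UMIs and from 7.47% to 13.2% of the nuclei. EN1, a large subtype, gave 31.7%, 35.8%, 18.3% and 21.4% of the UMIs with 38.4%, 34.7%, 15.1% and 20.2% of the nuclei, so its share followed its number. With every subtype given the same weight, the log2 ratio of P21 over E19 in excitatory neurons was -1.17. Fewer nuclei of a subtype caught from the tissue and a real loss of that subtype cannot be told apart here.

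Inhibitory neurons had less Cbln2 than excitatory neurons in all 4 libraries, by log2 ratios of -1.06, -0.42, -0.60 and -1.23. Over 6219 genes with at least 20 CPM, 17.1% were lower in inhibitory neurons in all 4 libraries. The 3 leading excitatory subtypes make much of this difference. With EN2, EN3 and EN12 left out, an alternative chosen after these values were seen, the ratios were -0.54 (-0.77 to -0.31), -0.10 (-0.30 to 0.09), 0.01 (-0.24 to 0.25) and -0.59 (-0.86 to -0.33), so at P4 and P8 the remaining excitatory neurons and the inhibitory neurons could not be told apart.

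UMIs of Cbln2 were also found in nuclei of cells not known for cerebellin release, and these are set beside the neurons because free RNA can enter any droplet. Microglia, endothelial and oligodendrocyte-lineage nuclei together, called the reference below, held 0.205 Cbln2 UMIs per nucleus (0.115 to 0.339), 0.303 (0.204 to 0.433), 0.123 (0.0770 to 0.186) and 0.0313 (0.0156 to 0.0561). Excitatory neurons held 0.549, 0.679, 0.391 and 0.431, above the reference at every stage. Inhibitory neurons held 0.186, 0.344, 0.155 and 0.0878, within the reference interval at the first 3 stages and above it at P21 alone. The reference thus dropped with age as the neurons did. Reference nuclei are shallower than neurons, and in CPM they held 41.2, 56.7, 21.9 and 4.34. On that scale excitatory neurons were above them beyond counting error at P21 alone. Inhibitory neurons lay within the reference interval in CPM at every stage, with 5.75 at P21 against 2.16 to 7.76.

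Measured as a percentage of the level per neuron, Cbln2 in the reference was 12.4% to 54.9% with a median of 49.1%. For 7 general or transmitter markers of neurons, such as Rbfox3 and Gad2, the same percentage was 1.88% to 32.3% with a median of 9.34%. With this reference subtracted the inhibitory level at E19 was set to no UMIs, so the log2 ratio of 0.80 could not come out negative. A pool with vascular leptomeningeal in place of oligodendrocyte-lineage nuclei held 0.145 Cbln2 UMIs per nucleus at E19, below the inhibitory 0.186. The part of free RNA in the lower inhibitory level was not tested. By subtype, Cbln2 was above the reference in UMIs per nucleus in 5 and 6 of 25 subtypes at E19 and P4 and in 7 and 9 of 23 at P8 and P21. EN1, EN2, EN3 and EN12 were among them at every stage, and of the inhibitory subtypes IN2 from P4, IN11 at P8 and IN1 at P21.

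**Figure D2:**
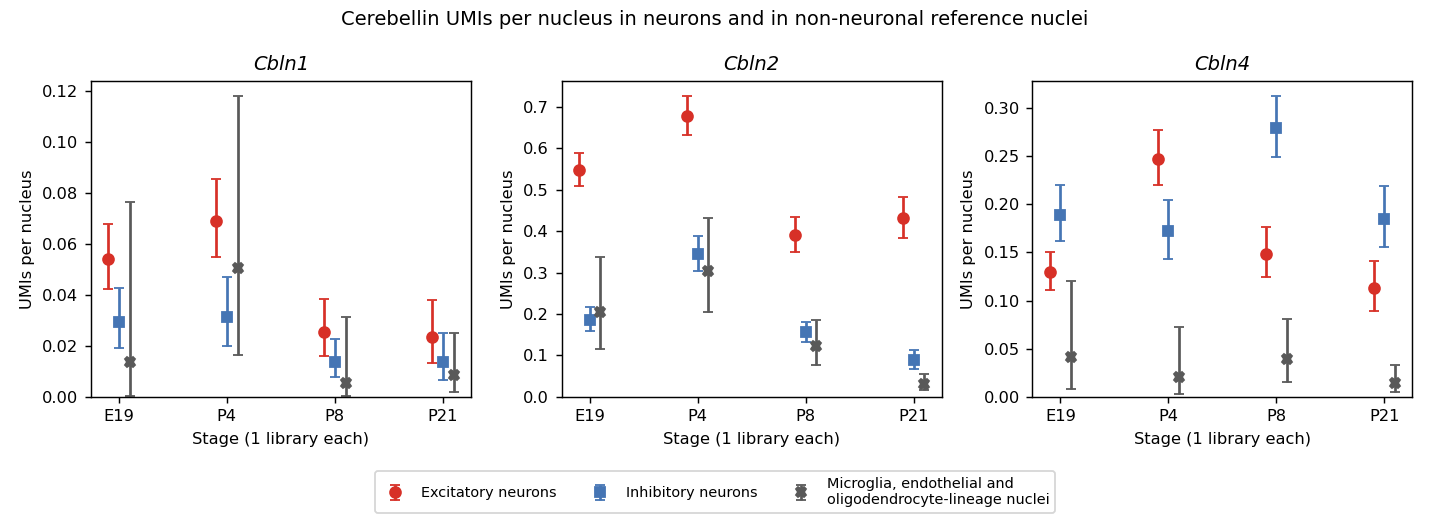
UMIs per nucleus (vertical axis, linear, from 0) of Cbln1, Cbln2 and Cbln4 at each stage (horizontal axis, 1 library each) in excitatory neurons, inhibitory neurons and pooled microglia, endothelial and oligodendrocyte-lineage nuclei, with exact 95% Poisson intervals. For Cbln2 the inhibitory points at E19 to P8 (0.186, 0.344 and 0.155) lie in the interval of the non-neuronal nuclei, while the excitatory points lie above it.

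The share of nuclei with at least 1 Cbln2 UMI in excitatory neurons was 31.3%, 36.6%, 23.1% and 25.1% at E19, P4, P8 and P21. These shares rise with depth, whose median in excitatory nuclei went from 8052 to 19601 UMIs. With every nucleus thinned to 2300 UMIs the shares were 11.4%, 10.2%, 5.42% and 3.67%. Inhibitory nuclei at a median of 6075 to 14010 UMIs gave 14.9%, 25.3%, 12.4% and 7.03%, or 5.49%, 7.32%, 3.22% and 1.22% after thinning. The reference, at a median of 3801 to 6927 UMIs, gave 15.1%, 20.2%, 11.2% and 3.13%, or 6.85%, 13.1%, 5.59% and 0.855% after thinning. At equal depth, then, the excitatory share was above that of the reference at E19 and P21 and not at P4 and P8, and the inhibitory share was above it at P21 alone, with overlapping intervals in each case. In UMIs per nucleus the excitatory class was above the reference at all 4 stages, so the measures differ at P4 and P8.

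Cbln4 was highest in 1 inhibitory subtype, IN3, in every library. IN3 held 215 CPM (166 to 274), 91.5 (61.3 to 131), 101 (86.5 to 117) and 36.6 (28.7 to 46.1), from 65, 29, 178 and 73 UMIs in 67, 61, 215 and 126 nuclei. The other inhibitory neurons together held 18.4, 16.1, 13.5 and 6.87 CPM. IN3 was thus 9.42-fold, 4.56-fold, 5.71-fold and 3.51-fold above the rest of its class on the (CPM + 5) scale. It gave 38.5%, 22.8%, 58.6% and 53.3% of all inhibitory Cbln4 UMIs with 7.503%, 8.27%, 19.8% and 17.0% of the inhibitory nuclei.

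Such a pattern was uncommon among the genes measured. Cbln4 in IN3 was at least 4-fold above the median of 23 subtypes in all 4 libraries, at 15.9-fold, 5.05-fold, 8.26-fold and 4.64-fold. Of 8144 genes with at least 20 CPM in the highest subtype of each library, 1.87% had 1 same subtype that far above the median in all 4 libraries. Neither Cbln2 (3.31-fold to 5.56-fold) nor Grid1 (1.36-fold to 2.43-fold) was among them. Cbln1 missed the 20 CPM minimum.

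IN12 followed IN3 with 59.7, 59.5, 63.6 and 24.98 CPM. At P4 the second place went to EN11, with 66.3 CPM against 30.5 at E19, a difference beyond counting error. EN11 had 84 nuclei at E19 and 52 at P4 but 18 and 9 at P8 and P21, too few to rank. IN4 likewise went from 11.5 CPM at E19 to 35.5 at P4 and then 16.4 and 14.1. EN7 at E19 (35.3 CPM), EN10 at P8 (27.1 CPM) and IN4 at P21 completed the 3 highest at those stages. At the low end were EN12, IN9 and IN10 at E19, IN5, IN7 and EN12 at P4, IN11, IN9 and EN12 at P8, and IN9, EN4 and IN10 at P21. EN12, a leader for Cbln2, thus had Cbln4 levels of 0, 3.83, 3.02 and 3.27 CPM. At E19 it was 1 of 3 subtypes tied at 0 UMIs. The interval of the ratio between adjacent subtypes left out 0 for 1 of 24 pairs at E19 and 0 of 24 at P4. It did so for 2 of 22 at P8 and 0 of 22 at P21, so most places are not settled. The subtype order had a Spearman's rho of 0.70 to 0.82 between libraries.

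As a class, inhibitory neurons held 28.3 CPM of Cbln4 (24.2 to 33.0), 19.9 (16.6 to 23.7), 27.4 (24.4 to 30.7) and 12.1 (10.2 to 14.3). Excitatory neurons held 15.0 (12.9 to 17.4), 20.01 (17.8 to 22.4), 9.78 (8.17 to 11.6) and 5.27 (4.16 to 6.59). The inhibitory class was above the excitatory class at E19, P8 and P21, by log2 ratios of 0.74, 1.13 and 0.74, and level with it at P4 at -0.01 (-0.25 to 0.24). Without IN3, an alternative chosen after its values were seen, the ratios were 0.22 (-0.05 to 0.50), -0.24, 0.33 (0.07 to 0.58) and 0.21 (-0.06 to 0.48). The difference between the classes therefore rests largely on that subtype.

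Between E19 and P21 the Cbln4 log2 ratio was -0.96 in each class, with intervals of -1.19 to -0.72 in excitatory and -1.22 to -0.70 in inhibitory neurons. The path differed: from P4 to P8 the inhibitory class went up by 0.38 and the excitatory class down, at -0.76. The share of IN3 among inhibitory nuclei went from 8.27% to 19.8% over that step, and without IN3 the inhibitory step was -0.19 (-0.48 to 0.10). Within subtypes, 18 of 23 had less Cbln4 at P21 than at E19, 4 had more and IN10 had 0 UMIs at both ages. Under median-of-ratios scaling 15 had less and 7 more. In 6 of those with less (EN1, EN4, EN10, IN1, IN2 and IN3) the interval left out 0 under both scalings, and in none of those with more. IN3 had the lowest ratio, -2.40 (-2.86 to -1.93).

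Reference nuclei held few Cbln4 UMIs, at 0.0411, 0.0202, 0.0391 and 0.0142 per nucleus from E19 to P21. Inhibitory neurons held 0.189, 0.172, 0.279 and 0.185, and excitatory neurons 0.129, 0.247, 0.149 and 0.113. In percent of the neuron level the reference was 9.24% to 26.8%, in the range of the neuron markers. By subtype, Cbln4 was above the reference in UMIs per nucleus in 6 and 9 of 25 subtypes at E19 and P4 and in 7 and 11 of 23 at P8 and P21. EN1, IN1, IN3 and IN12 were among them at every stage, so on that measure Cbln4 was not confined to IN3. Reference nuclei are shallower, and in CPM they held 8.24 (1.70 to 24.1), 3.78 (0.46 to 13.7), 6.97 (2.80 to 14.4) and 1.97 (0.64 to 4.60). On that scale excitatory neurons (15.0 and 9.78) and inhibitory neurons without IN3 (18.4 and 13.5) lay within the reference interval at E19 and P8. At P4 and P21 both were above it. A Cbln4 UMI was found in 13.2%, 13.4%, 16.2% and 11.8% of inhibitory nuclei (5.60%, 5.15%, 5.33% and 3.11% after thinning) and in 4.11%, 2.02%, 3.91% and 1.42% of the reference (4.11%, 0%, 1.68% and 0.570%).

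**Figure D3:**
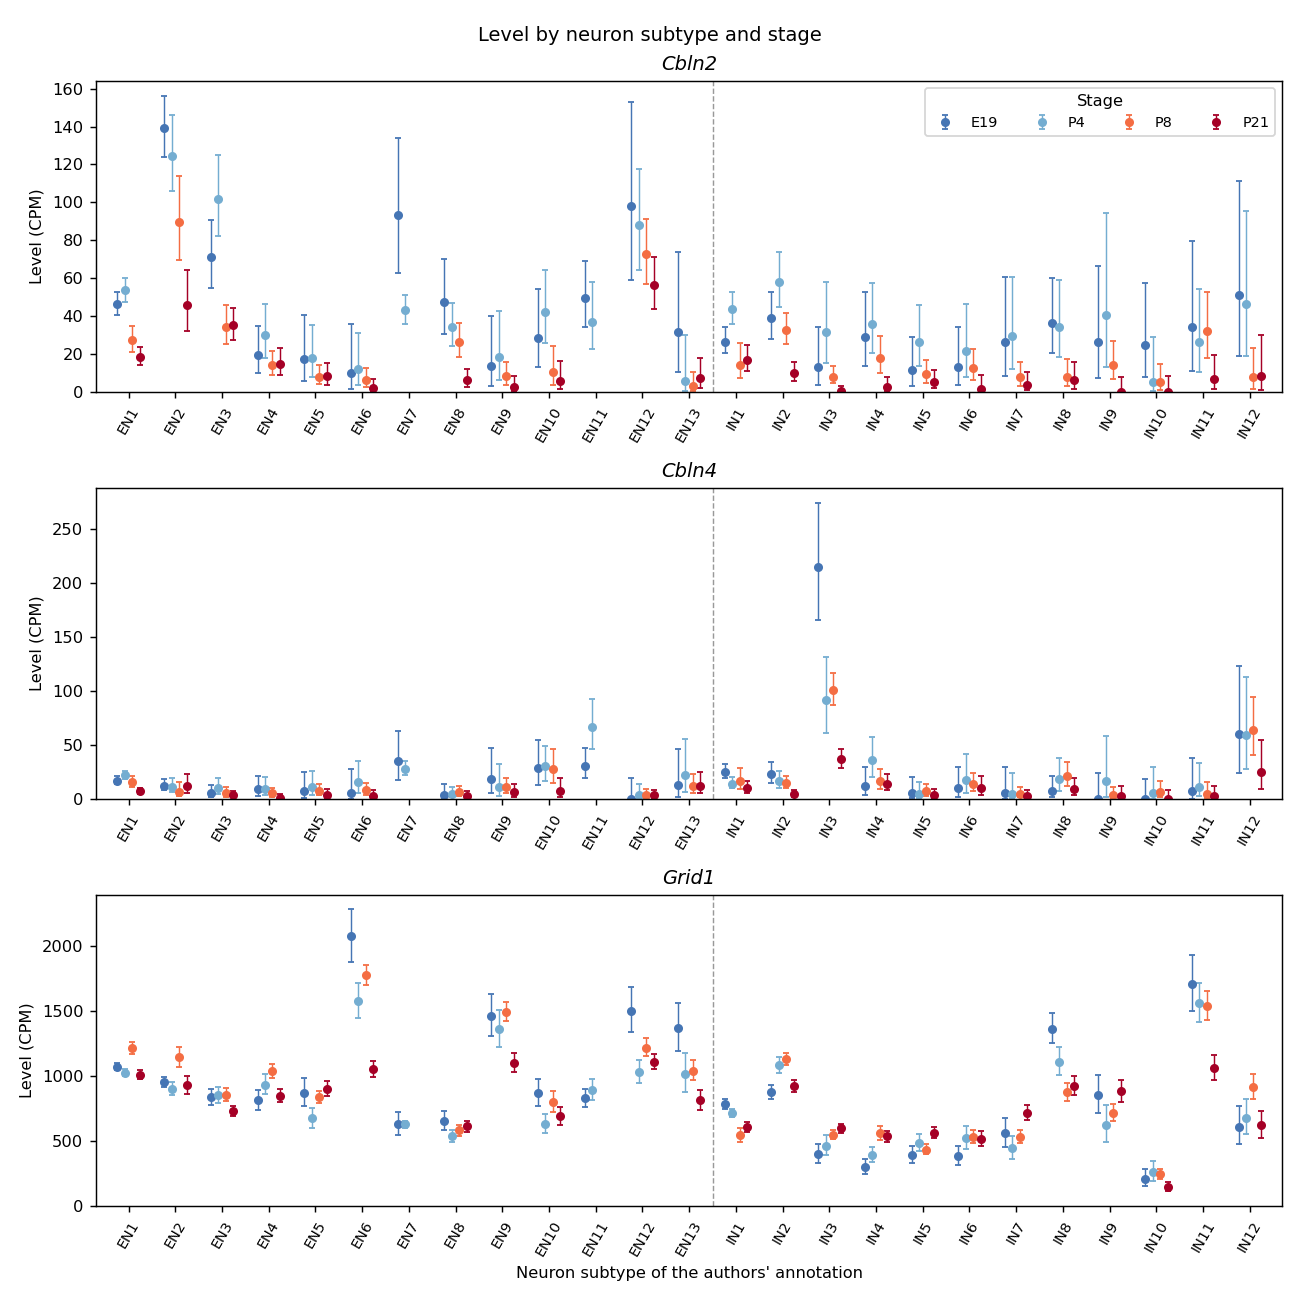
Level in CPM (vertical axes, linear, from 0) of Cbln2, Cbln4 and Grid1 in each neuron subtype (horizontal axis, excitatory left and inhibitory right of the dashed line), 1 point per stage for subtypes with at least 20 nuclei in that library. Bars are exact 95% Poisson intervals. EN2, EN3 and EN12 stand out for Cbln2, IN3 for Cbln4 (215 CPM at E19), and EN6 and IN11 for Grid1.

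Cbln1, the cerebellin of the cerebellar granule cell, was close to the detection limit in these nuclei. Excitatory neurons held 6.24 CPM (4.89 to 7.86), 5.57 (4.44 to 6.91), 1.67 (1.05 to 2.53) and 1.10 (0.63 to 1.78), from 72, 83, 22 and 16 UMIs. Inhibitory neurons held 4.36 (2.85 to 6.39), 3.60, 1.35 and 0.885 CPM (0.42 to 1.63), from 26, 23, 15 and 10 UMIs. Both classes had less at P8 and P21 than at the first stages. The P21 over E19 log2 ratio was -0.88 (-1.11 to -0.64) in excitatory and -0.67 (-0.98 to -0.36) in inhibitory neurons, and at such levels it depends on the 5 CPM added: with 1 CPM added it was -1.79 and -1.51, with 20 CPM -0.32 and -0.22.

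The Cbln1 level per nucleus in the reference was 29.5% to 92.6% of the neuron level, and both neuron classes lay within the reference interval at every stage. With the reference subtracted the P21 over E19 log2 ratio was -0.76 in excitatory and -0.46 in inhibitory neurons. No subtype was above the reference for Cbln1 at E19 or P4, only EN3 at P8 (5.11 CPM, 7 UMIs) and IN7 at P21 (7.03 CPM, 6 UMIs). The highest levels at E19 and P4 were IN4 with 14.4 CPM and EN5 with 11.1 CPM, from 5 UMIs each. The subtype order did not repeat, with a Spearman's rho between libraries of -0.17 to 0.53. Of the granule cell markers looked at, Gabra6 had 2 UMIs in excitatory neurons at E19 and 1 in inhibitory neurons at P21, and Neurod1 had 0 at every stage. The fourth cerebellin, Cbln3, had 6 UMIs or fewer in each neuron class and stage.

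Grid1, the postsynaptic side, differed less between E19 and P21 in the neuron classes than the cerebellins did. Excitatory neurons held 997 CPM (979 to 1015), 879 (864 to 894), 1096 (1078 to 1114) and 901 (885 to 916). Inhibitory neurons held 742 (720 to 764), 750.0 (729 to 772), 708 (693 to 724) and 675 (660 to 690). Inhibitory neurons were lower in all 4 libraries, by log2 ratios of -0.42, -0.23, -0.63 and -0.41, as 17.1% of genes were. The P21 over E19 ratio was small in both classes, -0.15 (-0.18 to -0.11) in excitatory and -0.14 (-0.19 to -0.08) in inhibitory neurons. Median-of-ratios scaling brought these to -0.025 and -0.030, so relative to the middle of all genes Grid1 hardly differed between the ages.

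The small class difference hid larger and opposite ones between subtypes. Of 23 subtypes, 13 had less Grid1 at P21 than at E19 and 10 had more. In 10 of the lower ones (7 excitatory, and IN1, IN8 and IN11) the interval left out 0, and so it did in 5 of the higher ones, all inhibitory. EN6 had the lowest ratio, -0.97 (-1.14 to -0.81), from 2071 CPM (1877 to 2280) at E19 through 1575 and 1772 to 1053 (991 to 1117) at P21. IN4 had the highest, 0.84 (0.54 to 1.15), from 296 CPM through 392 and 556 to 533. The other subtypes with more Grid1 at P21 were IN3 (0.58), IN5 (0.51), IN6 (0.43) and IN7 (0.36).

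Under median-of-ratios scaling 10 had less and 13 had more, and 4 excitatory subtypes (EN6, EN9, EN12 and EN13) and the same 3 inhibitory ones were lower beyond counting error. IN3, IN4, IN5, IN6 and IN7 were still higher, and IN2 and EN4 joined them. EN6 and IN11, the subtypes with most Grid1 at E19, were among those with less at P21, and the 5 that were higher at P21 had the lowest levels at E19 after IN10. The E19 level enters both the order and the ratio. The SD of log2 (CPM + 5) of Grid1 over the 23 subtypes was 0.84, 0.66, 0.68 and 0.61. For Cbln2 it was 0.83, 0.91, 0.92 and 1.01, and for Cbln4 1.22, 0.87, 0.93 and 0.74, so at E19 Grid1 was no more even over subtypes than Cbln2. The highest Grid1 subtype was 2.43-fold above the median at E19 and 1.36-fold at P21.

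The order of subtypes for Grid1 had the highest Spearman's rho of the 4 genes between libraries, 0.87 to 0.93. Grid1 also had the most UMIs, 83839 against 3034 for Cbln2, 1466 for Cbln4 and 299 for Cbln1. Counting error lowers rho for sparse genes, and its part in the difference between the genes was not tested. EN6 led at E19, P4 and P8 and IN11 came second, with 1705, 1558, 1539 and 1061 CPM over the stages. EN9 (1458, 1357, 1491 and 1099 CPM) and EN12 (1501, 1029, 1216 and 1109 CPM) filled the other leading places, and at P21 the first 3 were EN12, EN9 and IN11, whose intervals overlap. IN10 was lowest at every stage, with 207 CPM (149 to 279), 261, 242 and 144 (111 to 183), which is below the rest of its class by log2 ratios of -1.85, -1.53, -1.58 and -2.24. IN10 was also among the 3 lowest for Cbln2 from P4 on and for Cbln4 at E19 and P21.

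Excitatory subtypes also moved together in Grid1 at the middle step. From P4 to P8 all 11 excitatory subtypes with enough nuclei were higher, 7 beyond counting error, with a class ratio of 0.32 against -0.082 in inhibitory neurons. From P8 to P21, 9 of 11 excitatory subtypes were lower beyond counting error, at -0.28 for the class. Each of these steps compares 2 libraries, and the difference between the classes was not tested.

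**Figure D4:**
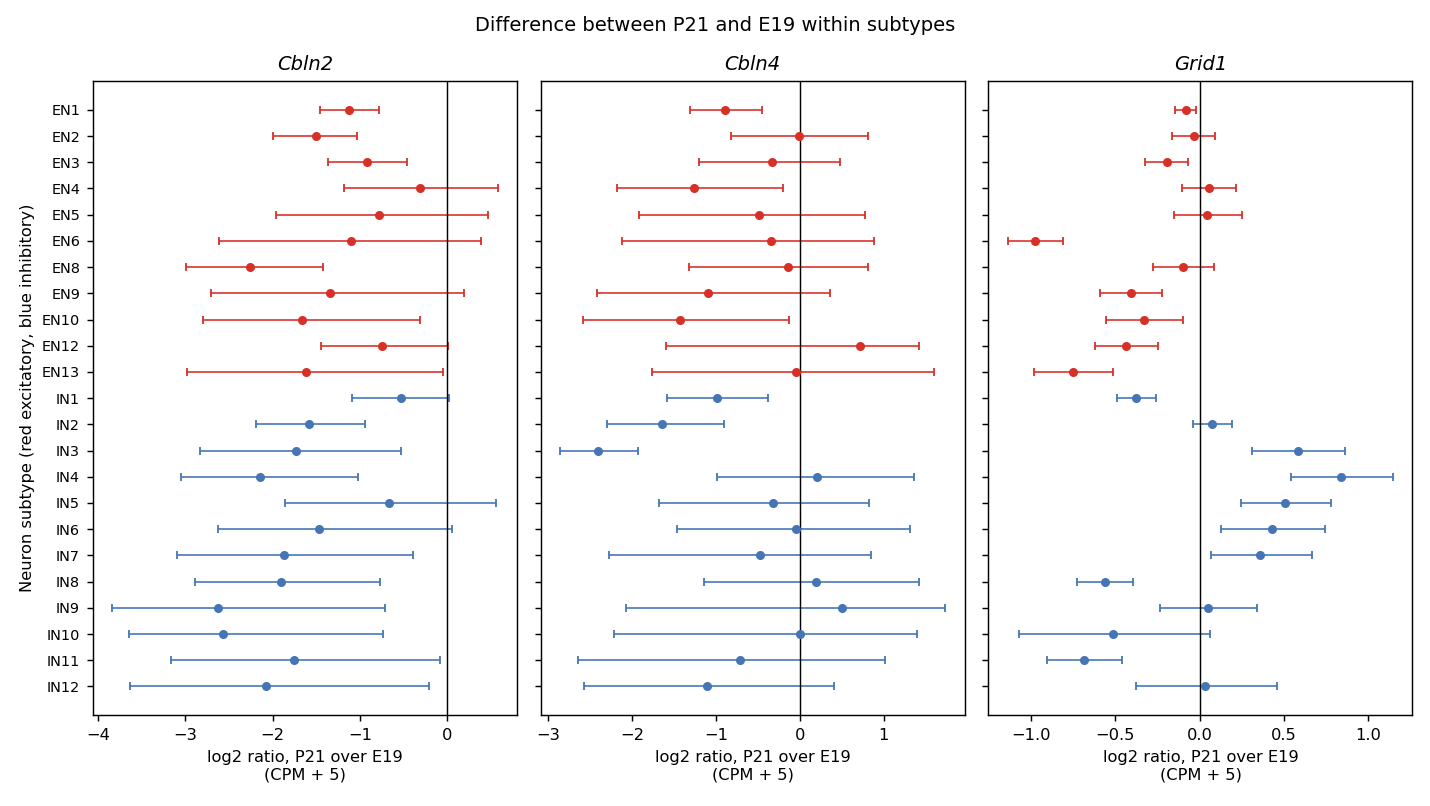
Log2 ratio of P21 over E19 on the (CPM + 5) scale (horizontal axes) within each of 23 neuron subtypes (vertical axis, excitatory red and inhibitory blue), with 95% counting intervals and a line at 0. All Cbln2 points lie below 0, IN3 is lowest for Cbln4 at -2.40, and for Grid1 IN3 to IN7 lie above 0 while EN6 lies at -0.97.

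Outside neurons, Grid1 was present in several kinds of glia at levels near or above the neuronal ones. Oligodendrocyte precursors, the cells from which myelinating cells arise, held 1647 CPM (1470 to 1840), 1266, 1481 and 1519 (1383 to 1666), above excitatory neurons at each stage by log2 ratios of 0.72, 0.52, 0.43 and 0.75. Committed oligodendrocytes held 1480 CPM at P8, level with precursors at a log2 ratio of 0.00 (-0.19 to 0.19), and 1073 at P21, below them at -0.50 (-0.68 to -0.32). Myelinating oligodendrocytes, the cells that wrap axons, held 47.9 CPM (37.6 to 59.98) at P21. The precursor level at P21 was thus 28.8-fold that of myelinating cells, with a log2 ratio of 4.85 (4.52 to 5.19).

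The lineage as a whole went from 1659 CPM at E19 to 447 at P21, a log2 ratio of -1.88, while precursors alone differed by -0.12 (-0.33 to 0.09). At P21 61.1% of the lineage nuclei were myelinating, so the lower lineage level went with its make-up. Protoplasmic astrocytes held 791, 909, 971 and 522 CPM and fibrous astrocytes 283, 146, 577 and 150 CPM, and the protoplasmic level was above the fibrous one beyond counting error at all 4 stages. Dividing cells held 877, 1277, 1359 and 1315 CPM, from 36, 25, 35 and 10 nuclei.

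Vascular leptomeningeal cells held 28.3 to 62.9 CPM of Grid1 and microglia, with 13 to 33 nuclei per library, 65.9 to 117. Endothelial cells held 45.1 to 87.3 CPM at the first 3 stages, from 13, 22 and 15 nuclei. At P21 they held 339 CPM, from 25 UMIs in 5 of 12 nuclei. Grid1 in microglia and endothelial nuclei together was 0.423 to 0.844 UMIs per nucleus, against 8.59 to 19.3 in excitatory and 4.95 to 10.3 in inhibitory neurons, and all neuron subtypes were above it in every library. A Grid1 UMI was seen in 94.2% to 99.6% of excitatory nuclei and in 24.4% to 31.1% of microglia and endothelial nuclei, at median depths of 8052 to 19601 and 3011 to 4408 UMIs. Thinned to 2300 UMIs, the shares were 78.6% to 88.1% and 13.9% to 26.7%.

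For Cbln2 and Cbln4, the ligands with enough UMIs to ask, joint detection was counted before and after thinning. The thinning was a single random draw, so a dependence on depth cannot be read from it. Over all neurons 223 nuclei had UMIs of both, where the product of their shares within each subtype and stage gives 218. After thinning, 9 nuclei (interval 4.12 to 17.1) had both, where 16.9 are given, which lies inside that interval. Most of that gap came from E19, with 1 nucleus (0.0253 to 5.57) against 7.39 after thinning and 58 against 59.8 before it. After thinning, Cbln2 and Grid1 were seen together in 362 nuclei (326 to 401) against 379.5, and Cbln4 and Grid1 in 188 (162 to 217) against 203.9. Before thinning the numbers were 1662 against 1654 and 916 against 899.6, so neither pair departed from the product of shares beyond counting error. Of the nuclei with Cbln2, 59.2% to 71.3% had a single UMI, which limits what joint detection can show.

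Across the 96 subtype by stage profiles of neurons, which share libraries and differ in depth, the members correlated weakly with each other. Pearson's r of log2 (CPM + 5) was 0.12 for Cbln2 with Cbln4, 0.22 for Cbln2 with Grid1 and -0.05 for Cbln4 with Grid1. Of 7422 genes ranked, those most alike to Cbln2 were Tcf7l2 (r = 0.72), a transcription factor of Wnt signalling, Dclk1 (0.70), a kinase of growing neurons, and Clmp (0.69), a cell adhesion protein. Tcf7l2 was high in EN7, at 2423 CPM at E19 and 1392 at P4. For Cbln4 the genes most alike were Celf4 (0.59), an RNA-binding protein, C1ql2 (0.57), a secreted C1q-like protein, and Supt5 (0.50). For Grid1 they were Sez6l (0.65), A230077H06Rik (0.56) and Vstm2b (0.54). Those for Cbln1, Sumo2, Gpr27 and Gm49164, reached 0.56 each, over counts too sparse to read.

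The binding partners are given as a fixed list, of which 14 genes are described. Among the neurexins, the presynaptic receptors of cerebellins, Nrxn2 was lower at P21 in both classes, going from 500.1 to 220 CPM in excitatory neurons (-1.17) and from 516 to 251 in inhibitory neurons (-1.03). Nrxn3 differed by 0.11 and 0.07 between the ages but was the most unequal between classes, higher in inhibitory neurons by log2 ratios of 2.41, 2.14, 2.50 and 2.37 from E19 to P21. Of the 6219 genes, 0.547% favoured the inhibitory class by 2-fold or more in every library, as Nrxn3 did.

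Neo1, which encodes neogenin, was lower at P21 by -0.78 in excitatory and -0.81 in inhibitory neurons, and the netrin receptor Dcc by -0.04 and -0.36. The C1q-like ligands, relatives of the cerebellins, were all scarce. C1ql1 (-1.20 and -0.71), C1ql2 (-1.17 and -0.43) and C1ql4 (-0.83 and -0.59) were lower at P21 in both classes. C1ql3 was lower in excitatory neurons, from 5.12 to 1.37 CPM, and higher in inhibitory neurons, from 4.19 to 7.96 CPM (log2 ratio 0.50, 0.16 to 0.81). Their receptor Adgrb3 was abundant and differed by 0.10 and 0.11. It was lower in inhibitory neurons in all 4 libraries, by -0.59, -0.38, -0.80 and -0.58, as Grid1 was.

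Inside the postsynaptic cell, the scaffolds Shank1 (-0.52 and -0.58) and Shank2 (-0.74 and -0.43) were lower at P21 in both classes, and the phosphatase Ptpn4 was higher in excitatory neurons (0.29). Homer3, another scaffold, went from 10.2 to 1.42 CPM in inhibitory neurons (-1.25). Of the 8 described genes with at least 20 CPM, 5 were lower at P21 in each class, with medians of -0.28 in excitatory and -0.39 in inhibitory neurons, against 4120 of 7650 and 4073 of 7807 for all genes. Cbln2, with ratios of -1.45 and -1.61, lay below each neurexin and receptor described here.

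**Figure D5:**
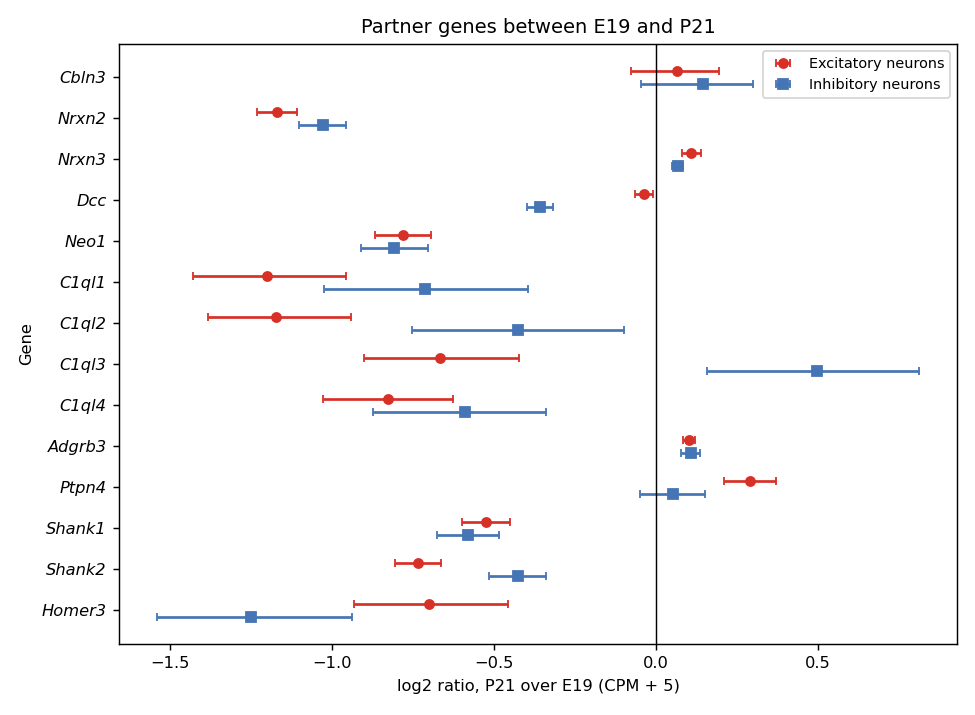
Log2 ratio of P21 over E19 on the (CPM + 5) scale (horizontal axis) of 14 listed partner genes (vertical axis) in excitatory and inhibitory neurons, with 95% counting intervals. Nrxn2 lies near -1 in both classes, and C1ql3 lies at -0.67 in excitatory and at 0.50 in inhibitory neurons.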

How the data were processed

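Nuclei were profiled with the 10x Genomics 3' v3 assay. The counts are UMIs per gene and nucleus, deposited by the authors with class and subtype labels, which were used as given. Per the submitters' processing notes, Cell Ranger 3.0.2 was used with mm10, and the labels' protocols give a reference that counts introns. How the authors treated doublets is not given in the sources used here, and no caller was run. Nuclei with UMIs of both transmitter types were left out as an alternative. Free RNA can also give such UMIs, so this does not replace the removal of doublets. Counts were summed per class or subtype and stage and divided by summed totals to give CPM. Neuron subtypes were ranked and compared where they had at least 20 nuclei, and some non-neuronal groups had fewer. With 1 library per stage no test was made. Intervals are exact Poisson or, for ratios, built from them, and cover counting error only. Shares were thinned to 2300 UMIs. Positions come from GENCODE M21. Named are the members, the partner list, the 3 genes most correlated with each member, and the 3 highest and lowest subtypes. The members and lists were chosen with earlier results of these data known. Of the 17 listed partners, 3 are not reported here. Python 3.11.15, numpy 2.4.6, pandas 2.3.3 and scipy 1.17.1 were used, and the sums were tested on simulated data.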

Additional observations from a re-analysis of the deposited data

Results flagged for a closer look

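Taken as class sums, excitatory and inhibitory neurons had log2 ratios of opposite sign over 4 steps. Each step lies between 2 libraries, and none of these differences was tested. Cbln2 from E19 to P4 had a log2 ratio of -0.19 in excitatory and 0.45 in inhibitory neurons. Within subtypes, 7 of 13 excitatory and 8 of 12 inhibitory ones had more Cbln2 at P4 over that step. The inhibitory class levels per nucleus lay within the reference interval at both stages. Cbln4 over the same step had 0.32 in excitatory and -0.42 in inhibitory neurons, and from P4 to P8 it had -0.76 and 0.38. For Grid1 from P4 to P8 the ratios were 0.32 and -0.082. Median-of-ratios scaling shifts inhibitory levels by a log2 of -0.089 at P4 and 0.018 at P8, so the sign of the small inhibitory Grid1 step depends on the scaling. Of 12 inhibitory subtypes, 7 had more Grid1 at P8 than at P4 and 5 had less. Without EN7 and EN11 the excitatory Cbln4 step from E19 to P4 was 0.20 (-0.04 to 0.44), and without IN3 the inhibitory one was -0.14 (-0.46 to 0.17).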

How the results depend on the processing

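No paired analysis was possible because the 4 libraries are 4 ages and none repeats a stage; ratios between classes are taken within each library. Of 118 log2 ratios recomputed for 12 results, 117 kept their direction and 87 stayed within their interval or spread. The exception is Cbln2 in inhibitory neurons with the reference UMIs subtracted (0.80), where the E19 level per nucleus lies below the reference. That level was set to no UMIs, so this ratio could not come out negative. Some alternatives could not turn a ratio: a different number of CPM added keeps the sign of any P21 over E19 ratio. Leaving out EN7 or the nuclei with shared barcodes removed few nuclei, so the count of kept directions overstates the check. Cbln2 in inhibitory neurons was -0.89 with 20 CPM added and -2.10 with 1; in excitatory neurons it was -1.06 with 20 CPM, -1.17 with subtypes weighted alike, -1.63 without the 2014 nuclei with UMIs of both transmitter types and -0.92 with the reference subtracted. Cbln4 in excitatory neurons was -0.47 with 20 CPM, -1.35 with 1, -0.58 with subtypes alike, -1.33 thinned and -0.67 with the reference subtracted; in inhibitory neurons it was -0.59 with 20 CPM and -1.27 with subtypes alike. Cbln1 was -0.32 and -0.22 with 20 CPM, -1.79 and -1.51 with 1, and -0.55 in excitatory neurons with subtypes alike. Grid1 in excitatory neurons was -0.025 with median-of-ratios scaling, -0.35 with subtypes alike, -0.22 thinned and -0.19 without the 489 nuclei with most UMIs; in inhibitory neurons it was -0.030, -0.059 and -0.080 under the first 3 of these and -0.072 without the nuclei of both types. The mean ratio between classes was -0.32 with 1 CPM added and -0.0066 with subtypes alike for Cbln1 (-0.17), 0.13 without IN3 for Cbln4 (0.65), and -0.31 without EN2, EN3 and EN12 for Cbln2 (-0.83). Thinning took the P21 shares from 1.91% to 0.147% for Cbln1, 25.1% to 3.67% for Cbln2 and 99.6% to 81.5% for Grid1 in excitatory nuclei, and from 11.8% to 3.11% for Cbln4 in inhibitory ones. Where no value above shows a cause, the cause was not tested. Levels of single subtypes stayed within their interval in 54 of 56 cases; the exceptions at P21 are Cbln2 in EN12 without the nuclei with most UMIs (87.3 CPM against 56.3) and Grid1 in EN6 with nuclei weighted alike (970.2 against 1053). The subtraction of the reference, the other reference, the shared barcodes and the left-out subtypes were chosen after seeing the data. With vascular leptomeningeal nuclei in the reference, Cbln2 was above it in 7, 8, 6 and 7 subtypes from E19 to P21 and Cbln4 in 7, 10, 11 and 9, the P8 count against 7 before. Depth limits Cbln1 and most single subtypes of Cbln4.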
